A study of Mus musculus with 6 samples.

Results

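The cells described here are the calretinin granule cells of the mouse olfactory bulb, the neuronal cluster that the deposited annotation names n03-GC-1. They were taken by that name, and they numbered 1914 of 21746 annotated neurons of 18 types and of 51426 annotated cells in all. RNA of single cells was measured in 6 libraries of dissociated bulbs from C57BL/6NJ mice aged 14 weeks, with 2 libraries for each of 3 conditions, and manipulations lasted 6 weeks. Control mice had no manipulation according to the labels, although the study's text also takes controls from the open side of occluded mice. If that held, control and occluded libraries could share animals, and no label says which. Occlusion was of a single naris with a plug, and the deprived side was the one taken as occluded. Tissue at the front of the bulb brought along some olfactory epithelium. Trained mice learned to discriminate odors for water and so were also water deprived. Libraries held pooled mice, and sex-linked genes showed replicate 1 of each condition to be mainly male and replicate 2 mainly female. The study's supplement takes each library as a batch of its own, so batch and library cannot be told apart, and p-values measure only the spread between these libraries, which includes sex.

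Granule cells are inhibitory neurons without an axon that sit in the core of the bulb and release GABA onto the dendrites of mitral and tufted cells, the output neurons. New granule cells and periglomerular cells are added throughout life from precursors of the subventricular zone. A subset holds calretinin, a cytosolic calcium-binding protein encoded by Calb2. In the bulb, calretinin marks both superficial granule cells and a large class of periglomerular cells around the glomeruli, where sensory axons end. Of the 18 neuronal types, the study counts 12 as adult-born interneurons, and the other 11 of these are the closest comparison for n03-GC-1.

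The 6 libraries held 139 to 587 cells of n03-GC-1 and 216708 to 745124 transcript molecules, counted by unique molecular identifiers (UMIs). The median cell had 1241 to 1668.5 UMIs depending on the library, and the median mitochondrial share of UMIs was 6.34% to 9.25%. The shallowest median was that of naris occlusion replicate 2, which also gave the most cells. Of 1913 distinct barcodes, 1 occurred in 2 libraries, so shared barcodes touched 2 of the cells. In the separate clustering of the whole bulb, 1888 of the cells (98.6%) lay in the neuron cluster N13. That cluster also held 1026 cells of n02-PGC-1, a calretinin periglomerular type. The levels below are UMIs summed over the cells of a type in a library, scaled to 1000000 UMIs of that sum (counts per 1000000, CPM), with the SD over the 6 libraries.

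The study takes Calb2 as a marker of n03-GC-1, and the name calretinin comes from it, so its level is no check of the name. Calb2 stood at 13129 ± 2397 CPM (SD, n = 6 libraries) in n03-GC-1, against 6489 ± 677 CPM in n02-PGC-1, the next type. The third, n11-GC-5, had 1137 ± 274 CPM, and the remaining types ran from 95.5 CPM (n12-GC-6) up to 892 CPM (n17-M/TC-3). In every library n03-GC-1 was above all of the other adult-born types. Neighbors further down the order, such as n16-M/TC-2 at 304 ± 139 CPM and n06-Transition at 273 ± 93.9 CPM, did not differ beyond their spread. Since the clusters were built from these same expression values, comparisons of n03-GC-1 with other types are descriptions and carry no test.

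**Figure D1:**
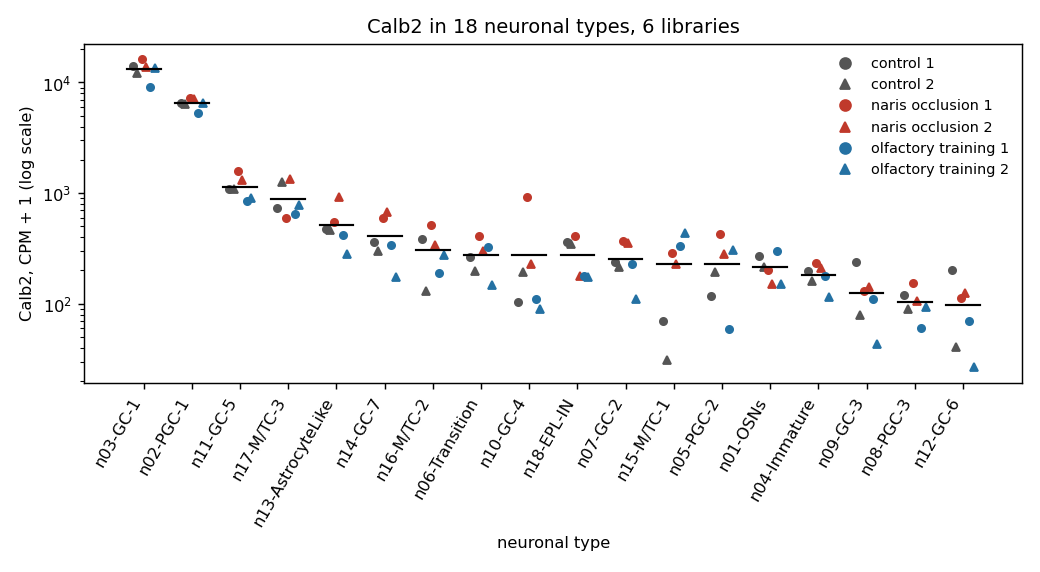
Calb2 in CPM plus 1, on a log axis, in each of the 18 neuronal types, with 1 point per library colored by condition and the mean as a line. The 6 libraries of n03-GC-1 lie between 9035 and 16175 CPM and those of the next type, n02-PGC-1, between 5290 and 7188 CPM.

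At the level of single cells, 93.4% of n03-GC-1 cells had at least 1 Calb2 UMI at a median depth of 1416 UMIs. After each cell was thinned to 500 UMIs, which left out no cell, the share was 86.5%. The corresponding shares in n04-Immature, the immature neurons, which have little calretinin, were 19.8% at a median depth of 1668 UMIs and 8.70% after thinning. In n02-PGC-1 they were slightly above those of n03-GC-1, 94.9% at a median depth of 1846 UMIs and 87.7% after thinning. The median n03-GC-1 cell had 13 Calb2 UMIs, the middle of the distribution ran from 4 to 32 (quartiles), and the highest cell had 112. Calb2 made up 1.01% of the UMIs of the median cell, with quartiles of 0.385% and 2.07%. In n02-PGC-1 the median was 0.574% and the quartiles were 0.365% and 0.834%. The upper quartiles thus lay further apart than the lower ones, and n03-GC-1 spanned a wider range of Calb2. The 126 cells without a Calb2 UMI had a median depth of 877 UMIs, below that of the type as a whole.

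By expression over 18057 genes, n03-GC-1 was most like n02-PGC-1 (Spearman's rho 0.968), followed by n11-GC-5 (0.935) and n04-Immature (0.934). These correlations are across genes of the same 6 libraries, and genes are not independent replicates. Of 3409 genes with at least 50 CPM in n03-GC-1, 199 had a higher mean there than in each of the other 11 adult-born types, and for 118 of these the next type was n02-PGC-1. A far smaller number, 26, was above all 11 in each of the 6 libraries. Only 7 genes were at least 2-fold above every other adult-born type, computed with 5 CPM added to both levels. Few genes were thus high in n03-GC-1 alone, and n02-PGC-1 was most often next.

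Among the 7, Trpc5, which encodes a cation channel of the transient receptor potential family, stood at 72.3 ± 18.9 CPM and the next adult-born type, n10-GC-4, at 11.1 ± 13.2 CPM, while n16-M/TC-2, outside the adult-born types, had 55.5 ± 63.0 CPM, within the spread. Hs3st4, an enzyme that sulfates heparan sulfate chains, had 75.3 ± 17.6 CPM against 15.5 ± 15.9 CPM in n09-GC-3. Cplx3, a complexin that binds the vesicle fusion machinery, had 63.3 ± 19.9 CPM against 17.3 ± 7.91 CPM in n02-PGC-1. For the semaphorin Sema6d the levels were 110 ± 22.5 CPM and 33.3 ± 11.02 CPM in the same pair of types. Cst12, of the cystatin family, and Fbln5, an extracellular matrix protein, were lower in abundance, at 52.4 ± 10.8 and 51.6 ± 16.2 CPM. All 7, Calb2 included, were higher in n03-GC-1 than in the other adult-born types in 6 of 6 libraries.

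Below 2-fold followed Rbms1, Wscd1, Nccrp1, Dact1, Vsnl1, Serpine2, Kcnmb2 and Lingo2. Serpine2, a secreted inhibitor of serine proteases, was the most abundant of them in n03-GC-1 at 1447 ± 266 CPM, and its level in n02-PGC-1 was 785 ± 74.7 CPM. Vsnl1, the calcium sensor visinin-like 1, had 317 ± 40.3 CPM against 166 ± 32.8 CPM, but mitral and tufted cells of n16-M/TC-2 had 1685 CPM. In n15-M/TC-1, with 90 cells, Sema6d had 154 ± 149.8 CPM and Wscd1 134 ± 84.1 CPM. Wscd1 had 51.9 ± 10.4 CPM in n03-GC-1, and for both genes the difference lay within the SD of n15-M/TC-1. Kcnmb2, an auxiliary subunit of large-conductance potassium channels, had 130 ± 22.3 CPM against 69.1 ± 19.1 CPM.

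The 10 genes lowest relative to the other adult-born types were led by Nrxn3, Dlgap1 and Kcnc1. Nrxn3, a presynaptic neurexin, had 196 ± 14.1 CPM in n03-GC-1, below the lowest other adult-born type, n09-GC-3, with 294 ± 64.0 CPM and far below the median of the other 11 at 703 CPM. Dlgap1, a scaffold of the postsynaptic density, had 112 ± 20.7 CPM against a median of 526 CPM and was the lowest of all 18 types. Kcnc1, a potassium channel of fast-spiking neurons, stood at 12.7 ± 4.75 CPM against a median of 117 CPM, although n02-PGC-1 at 16.7 CPM lay within the spread. Scn3a, a sodium channel subunit, had 27.3 ± 11.8 CPM against a median of 102 CPM, and n02-PGC-1 at 29.8 ± 14.3 CPM lay within the spread. Abr, Adgrl1, Usp46, Akap11, Cttnbp2 and Scd2 completed the 10 lowest, and their ratios to the lowest other adult-born type were 0.858 to 0.935. Each of these differences lay within the SD of that type. Akap11, for example, had 71.4 ± 11.9 CPM against 77.4 ± 16.3 CPM in n02-PGC-1.

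**Figure D2:**
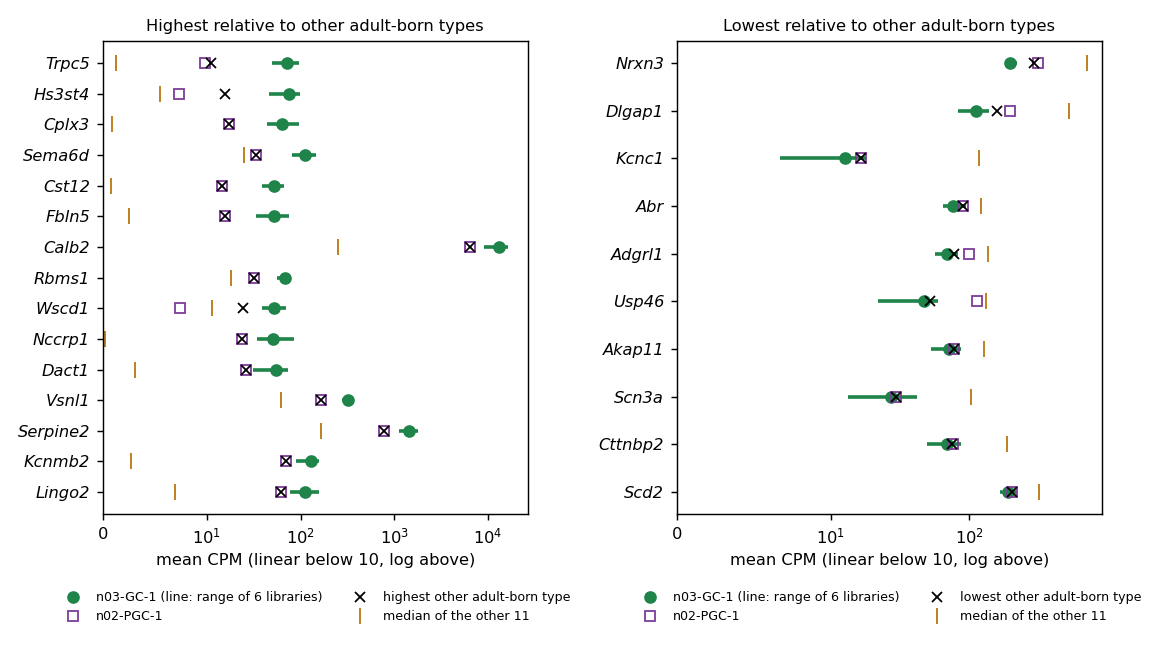
Mean CPM of the 15 genes highest and the 10 lowest in n03-GC-1 relative to the other 11 adult-born types, with the range over 6 libraries as a line (linear below 10 CPM, log above). On the left n02-PGC-1 is mostly the nearest other type, and on the right most n03-GC-1 levels lie close to the lowest other type and below the median of the other 11.

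Lists of genes by role gave the same picture in counts. They were read against all 7196 genes with at least 20 CPM in n03-GC-1 or in the median other adult-born type, of which 9.82% were at least 1.5-fold above that median and 10.5% at least 1.5-fold below it. Of 33 transcription factors of bulb interneurons at that level, 17 were above and 11 below. Sox5, a SoxD factor, had 219 ± 37.3 CPM against 148 CPM in n02-PGC-1 and a median of 12.7 CPM in the other 11. Zic1, a zinc finger factor, had 821 ± 61.3 CPM against a median of 62.4 CPM. Sp8, a zinc finger factor needed for calretinin interneurons, had 653 ± 90.4 CPM but was higher in n02-PGC-1 at 829 CPM. Its relative Sp9 had 443 ± 65.1 CPM, beside 458 ± 60.4 CPM in n04-Immature and 336 ± 35.9 CPM in n02-PGC-1. Nfix, of the nuclear factor I family, had 321 ± 39.3 CPM against a median of 23.3 CPM. Neither Zic1 nor Nfix was at least 2-fold higher than in n02-PGC-1 with the same direction in all 6 libraries. The low side held Tshz1 at 113 CPM against 357 CPM and Bcl11b at 18.7 CPM against 133 CPM. The median log2 difference of this list from n02-PGC-1 alone was 0.24.

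Genes of inhibitory transmission were on the low side. Of the 9 genes of GABA synthesis, release and uptake, 1 was above and 4 were below the median. Gad1, the main enzyme of GABA synthesis, had 580 ± 77.1 CPM against a median of 1152 CPM, and Gad2 had 116 ± 19.0 CPM against 199 CPM. For Gad1, n02-PGC-1 at 631 ± 81.6 CPM lay within the spread, and n04-Immature at 290 ± 35.3 CPM was lower still. Of 10 subunits and partners of the GABA-A receptor, 6 were below, with Gabra5 at 13.4 CPM against 129 CPM. The 11 ionotropic glutamate receptor genes had 7 below, such as Gria3 at 26.7 CPM against 151 CPM. Among the 19 sodium and calcium channel genes 12 were below, and among the 21 potassium channel genes 13. A few channels went the other way. Kcnd3, an A-type potassium channel, had 159 ± 26.6 CPM in n03-GC-1, the highest of the 18 types. The subunit Kcnip2, which binds such channels, had 893 ± 46.8 CPM against a median of 31.3 CPM. It was not at least 2-fold higher than in n02-PGC-1 with the same direction in all 6 libraries. Against n02-PGC-1 alone, the median log2 differences were -0.12 for GABA genes, -0.17 for GABA-A receptors and -0.11 for glutamate receptors. They were 0.06 for sodium and calcium channels and 0.07 for potassium channels. These lists thus set n03-GC-1 little apart from n02-PGC-1.

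Of 30 genes of mature neurons and synapses, 13 were below and 2 above the median, and Syt1, the calcium sensor of vesicle release, had 148 ± 41.8 CPM against 1061 CPM. Among 26 genes of immature neurons, 10 were above and 1 below. Those named here were all below n04-Immature. Dcx, a microtubule protein of migrating neurons, had 221 ± 30.4 CPM in n03-GC-1, a median of 229 CPM in the other 11 and 907 CPM in n04-Immature. Sox4 had 791 ± 51.5 CPM against 2322 CPM in n04-Immature, and Igfbpl1 had 424 CPM against 1544 CPM. Of 22 genes of high-mobility-group and other small nuclear proteins, 8 were above and 1 below, with the histone variant gene H3f3b at 4832 ± 639 CPM against 1876 CPM. Against n02-PGC-1 alone, the median log2 differences were -0.11 for mature neuron, 0.25 for immature neuron and 0.07 for nuclear protein genes. The study's own 44 genes for this cluster had 19 above and 0 below, but they were chosen on these samples and are no independent evidence of a direction.

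Next to n02-PGC-1, the type that shares its cluster in the whole bulb, 3654 genes had at least 50 CPM in either type. Of these, 47 were at least 2-fold higher in n03-GC-1 with the same direction in all 6 libraries, and 45 were at least 2-fold lower. The higher genes included Id2, an inhibitor of basic helix-loop-helix factors, at 702 ± 177 CPM against 77.2 ± 16.0 CPM, and Lsamp, a cell adhesion protein, at 148 ± 23.4 CPM against 20.0 ± 3.99 CPM. Ccnd2, a cyclin, and Sox11, a factor of young neurons, had 121 ± 26.1 and 89.2 ± 31.5 CPM against 21.2 and 35.3 CPM. Among the lower genes were Vip, Grem1, Nppa and Cnr1. Vip, a neuropeptide, had 11.2 CPM against 471 ± 231 CPM in n02-PGC-1. Grem1, a secreted antagonist of bone morphogenetic proteins, had 28.8 ± 9.19 CPM against 480 ± 77.1 CPM. Nppa, the precursor of atrial natriuretic peptide, had 223 ± 85.2 CPM against 902 ± 261 CPM, and the cannabinoid receptor Cnr1 had 39.9 ± 7.52 CPM against 167 ± 38.7 CPM. These genes were picked from that comparison after their values were seen.

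Markers of other cells were also present. Tyrosine hydroxylase, Th, the defining gene of dopaminergic periglomerular cells, was found in 1.36% of n03-GC-1 cells, and in 0.418% after thinning, against 32.4% of thinned n05-PGC-2 cells. All 7 listed mitral and tufted markers had a UMI, and their summed level was 25.05 to 77.6 CPM in the control libraries, 42.9 to 61.2 CPM in the occluded ones and 36.9 to 79.7 CPM in the trained ones. Astrocyte markers (7 of 7 with a UMI) summed to 2358 to 3399 CPM over the 6 libraries, oligodendrocyte markers (6 of 6) to 1218 to 1620 CPM and olfactory ensheathing markers (5 of 5) to 664 to 1142 CPM. Of the astrocyte sum, Apoe alone made up 1592 to 2566 CPM. No correction for free RNA was made, and its part in these values was not tested. Alas2 of the red blood cell list and Top2a of the dividing cell list were at 0. Of the listed markers of other granule cell types, 7 reached 20 CPM in n03-GC-1 or in the median other adult-born type. Of these, 1 was at least 1.5-fold above that median and 4 at least 1.5-fold below it.

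The first question between conditions is how many of the adult-born neurons were calretinin granule cells. Their share was 10.7% and 8.80% in the control libraries (replicate 1, then 2), 15.5% and 20.1% under occlusion, and 8.57% and 6.11% after training. Both occluded libraries were thus above all others, and the trained libraries below the controls. The means were 9.77 ± 1.37%, 17.8 ± 3.22% and 7.34 ± 1.74% (SD, n = 2 libraries each). On numbers of cells over the 12 adult-born types, edgeR's quasi-likelihood test gave a log2 difference of 0.86 (SE 0.30, adjusted p = 0.0300) for occlusion against control. For training against occlusion it gave -1.27 (SE 0.30, adjusted p = 0.00102), and for training against control -0.41 (SE 0.30, adjusted p = 0.557), which missed the threshold. An exact two-sided permutation test of the shares cannot go below p = 0.333 with 2 libraries against 2, and it gave that value for each comparison.

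**Figure D3:**
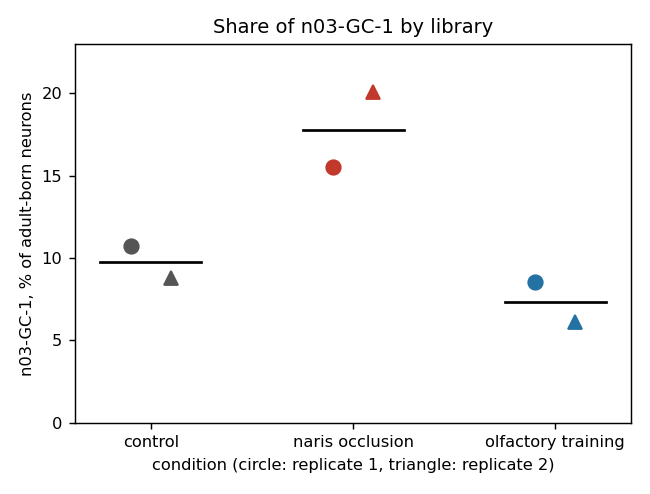
The share of n03-GC-1 among adult-born neurons, in percent, for each of the 6 libraries, with the mean of each condition as a line. The occluded libraries (15.5% and 20.1%) lie above the controls (10.7% and 8.80%) and the trained libraries (8.57% and 6.11%).

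The rise under occlusion rested on all 4 libraries compared. Its adjusted p was 0.111 without control replicate 1, 0.589 without control replicate 2, 0.0538 without naris occlusion replicate 1 and 0.277 without naris occlusion replicate 2, each with a log2 difference between 0.66 and 1.03. In naris occlusion replicate 2 the granule type n07-GC-2 made up 12.3% of adult-born neurons, against 22.8% to 26.2% in the other 5 libraries. With the shallow types n06, n07 and n14 left out of the total, the difference was 0.54 (adjusted p = 0.208), and with cells of at least 1000 UMIs only it was 0.53 (adjusted p = 0.556). For training against occlusion the corresponding values were -0.81 (adjusted p = 0.0671) and -0.95 (adjusted p = 0.136), and without naris occlusion replicate 2 the value was -1.07 (adjusted p = 0.0543). A share cannot tell more cells of this type from fewer cells of the others.

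Calb2 itself was at 14237 and 12123 CPM in the control libraries, 16175 and 13669 CPM under occlusion, and 9035 and 13534 CPM after training. Training replicate 1 was the lowest library, both trained libraries lay below both occluded ones, and the controls overlapped with each. Occlusion against control gave a log2 difference of 0.15 (SE 0.11, adjusted p = 0.967), training against control -0.26 (SE 0.11, adjusted p = 0.876) and training against occlusion -0.41 (SE 0.11, adjusted p = 0.202), so Calb2 as a share of UMIs did not pass the test in any comparison. The size of these differences depended on single libraries. Without olfactory training replicate 2, training gave -0.56 against control and -0.70 against occlusion, and without naris occlusion replicate 2 the latter was -0.51. Each of these fits leaves a lone library in a condition and so holds no spread for it. With genes of low counts kept, training against occlusion passed at -0.44 (adjusted p = 8.73e-05 by edgeR's quasi-likelihood test). The share of cells without a Calb2 UMI was 7.27% and 7.65% in the controls, 4.70% and 3.92% under occlusion, and 9.79% and 12.9% after training.

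Of 6995 genes tested in n03-GC-1, 5 fell and 0 rose under occlusion against control, 0.0715% and 0% of the genes tested, by edgeR's quasi-likelihood test at an adjusted p under 0.05. At an unadjusted p under 0.05, 2.84% were lower and 2.67% higher. The 5 were S100a5, Nppa, Scg2, Nrsn1 and E530001K10Rik, and for each of them both occluded libraries lay below both controls, as the rule for naming genes required. The RefSeq promoters (GRCm38.p6, from 250 bases before to 50 bases after the transcription start) of Scg2, Nppa and Nrsn1 are shown for 3 of the genes that fell, and that of Dynll1 for the gene that rose with training. They read 5′ to 3′ on the gene's strand, and capitals mark TGACG or its reverse complement CGTCA, the core of the site of CREB, a factor activated by calcium and cyclic AMP.
Scg2 (chr1:79439977-79440276, minus strand): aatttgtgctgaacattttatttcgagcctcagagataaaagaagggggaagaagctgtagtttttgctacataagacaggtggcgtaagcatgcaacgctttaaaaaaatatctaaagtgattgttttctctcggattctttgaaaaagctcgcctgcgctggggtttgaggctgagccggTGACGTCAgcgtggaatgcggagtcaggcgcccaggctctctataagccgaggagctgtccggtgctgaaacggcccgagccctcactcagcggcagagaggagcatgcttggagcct
Nppa (chr4:148000472-148000771, plus strand): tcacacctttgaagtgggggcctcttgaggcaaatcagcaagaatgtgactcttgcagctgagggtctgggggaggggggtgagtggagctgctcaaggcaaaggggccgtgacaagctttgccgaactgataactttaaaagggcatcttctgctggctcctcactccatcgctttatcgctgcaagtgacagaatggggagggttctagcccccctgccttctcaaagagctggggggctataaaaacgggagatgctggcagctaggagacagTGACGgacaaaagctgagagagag
Nrsn1 (chr13:25269947-25270246, minus strand): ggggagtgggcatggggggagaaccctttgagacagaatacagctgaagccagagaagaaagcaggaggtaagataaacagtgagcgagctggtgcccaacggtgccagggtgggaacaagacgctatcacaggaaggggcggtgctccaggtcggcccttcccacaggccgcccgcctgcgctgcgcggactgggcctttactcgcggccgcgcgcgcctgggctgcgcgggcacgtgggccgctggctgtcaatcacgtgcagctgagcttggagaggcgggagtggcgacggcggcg
Dynll1 (chr5:115300941-115301240, minus strand): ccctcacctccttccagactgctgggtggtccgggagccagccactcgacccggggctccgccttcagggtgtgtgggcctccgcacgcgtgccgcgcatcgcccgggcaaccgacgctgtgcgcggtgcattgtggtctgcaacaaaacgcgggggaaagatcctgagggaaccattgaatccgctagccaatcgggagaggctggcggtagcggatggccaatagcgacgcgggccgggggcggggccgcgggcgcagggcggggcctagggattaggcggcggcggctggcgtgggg

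The full site TGACGTCA was in the Scg2 promoter and began 68 bases before the start. It was found in 1.79% of the 32851 promoters of the reference. The core TGACG, searched on both strands and overlapping the full site, was in 20.8% of all promoters, and in 3 of the 13 promoters of the 11 genes of this report that passed a test between conditions and had an entry. Those were Scg2, Nppa (26 bases after the start) and 1 of the 2 promoters of Cirbp. S100a5, which also fell and is not printed above, had no such core. The AP-1 site TGANTCA, in 7.81% of all promoters, was in 0 of the 13. These matches are descriptions of letters and not of binding.

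Scg2, the granin secretogranin II of dense-core vesicles, was at 316 and 363 CPM in the control libraries, 185 and 169 CPM under occlusion and 280 and 365 CPM after training. The occluded libraries were the 2 lowest of the 6. Its log2 difference under occlusion was -0.96 (SE 0.16, adjusted p = 0.00288). Nppa, the natriuretic peptide precursor, was at 250 and 363 CPM in controls, 121 and 158 CPM under occlusion and 249 and 198 CPM after training. Occlusion gave -1.12 (SE 0.19, adjusted p = 0.00288). In n02-PGC-1, where Nppa is higher, it was at 1094 and 1118 CPM in controls and at 672 and 523 CPM under occlusion. Nrsn1, the vesicle membrane protein neurensin 1, was at 1888 and 2079 CPM in controls, 1297 and 1333 CPM under occlusion and 2074 and 2104 CPM after training, with -0.62 for occlusion (SE 0.12, adjusted p = 0.0343). Its 2 occluded libraries stood well apart from the 4 others.

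E530001K10Rik, a transcript without a named product, was at 51.1 and 59.5 CPM in controls, 16.1 and 14.8 CPM under occlusion and 82.3 and 143 CPM after training. Both occluded libraries were below the controls and both trained libraries above them. The log2 difference was -1.83 (SE 0.37, adjusted p = 0.0364) under occlusion and 0.93 (SE 0.30, adjusted p = 0.761) with training, which did not pass. In n02-PGC-1 it was at 63.2 and 53.1 CPM in controls, 12.2 and 17.7 CPM under occlusion and 61.7 and 137 CPM after training, and in n04-Immature it stayed between 2.19 and 4.28 CPM.

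S100a5, an S100 calcium-binding protein made by olfactory sensory neurons, was at 767 and 758 CPM in controls, 347 and 133 CPM under occlusion and 972 and 466 CPM after training. The difference under occlusion was -1.73 (SE 0.25, adjusted p = 0.000559). These levels are small beside those of the sensory neurons of n01-OSNs, which had 28031 and 25567 CPM in controls and 15027 and 10026 CPM under occlusion. The ratio of S100a5 to Gng13 UMIs, the latter another sensory neuron transcript, was 1.55 and 1.70 in n03-GC-1 controls and 0.762 and 0.296 under occlusion. In n01-OSNs the same ratio was 1.63 and 1.36 in controls and 0.791 and 0.402 under occlusion. After training it was 1.52 and 1.33 in n03-GC-1 and 1.42 and 1.497 in n01-OSNs. In both types the occluded libraries had the lowest ratios, replicate 2 below replicate 1. All 6 listed sensory neuron markers had a UMI in n03-GC-1, and their sum, which includes S100a5, was 1255 to 1327 CPM in controls, 631 to 861 CPM under occlusion and 881 to 1673 CPM after training. Gng13 alone was at 494 and 445 CPM in controls, 454 and 450 CPM under occlusion and 637 and 351 CPM after training, so the occluded libraries were not lower for it. The part of free sensory neuron RNA in the S100a5 difference was not tested.

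**Figure D4:**
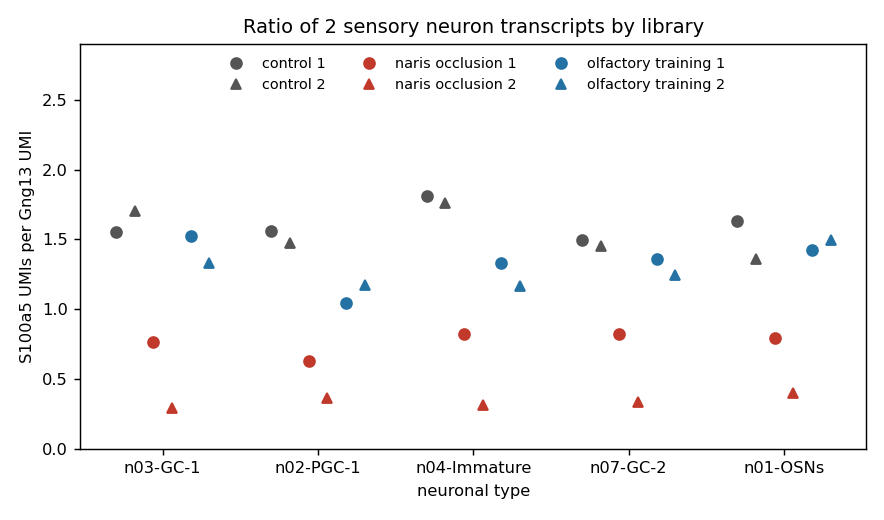
UMIs of S100a5 per UMI of Gng13 in 5 neuronal types, with 1 point per library colored by condition. The occluded libraries lie lowest in each type, at 0.762 and 0.296 in n03-GC-1 and at 0.791 and 0.402 in n01-OSNs.

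How many genes passed depended on single libraries. Occlusion against control gave 1 gene (Nppa) without control replicate 1, 0 without control replicate 2, 15 without naris occlusion replicate 1, 10 without naris occlusion replicate 2, 8 without olfactory training replicate 1 and 10 without olfactory training replicate 2. DESeq2's Wald test gave 0 genes. Some genes that passed only with a library left out were sex-linked, such as Xist.

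Training against control gave 1 gene that rose, 0.0143% of those tested, and 0 that fell (0%), while 2.70% were higher and 2.54% lower at an unadjusted p under 0.05. Dynll1, a light chain of dynein motors, was at 400 and 476 CPM in controls, 380 and 495 CPM under occlusion and 900 and 720 CPM after training. Both trained libraries exceeded the other 4. Its log2 difference was 0.88 (SE 0.17), and the adjusted p of 0.04995 lay just inside the threshold. The other 11 adult-born types together had 733 and 801 CPM in controls and 1271 and 999 CPM after training. The call was lost without control replicate 1 (0 genes), without control replicate 2 (0 genes) and without olfactory training replicate 1 (1 other gene, Malat1). It was kept among 4 genes without naris occlusion replicate 1, among 4 without naris occlusion replicate 2 and among 2 without olfactory training replicate 2.

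**Figure D5:**
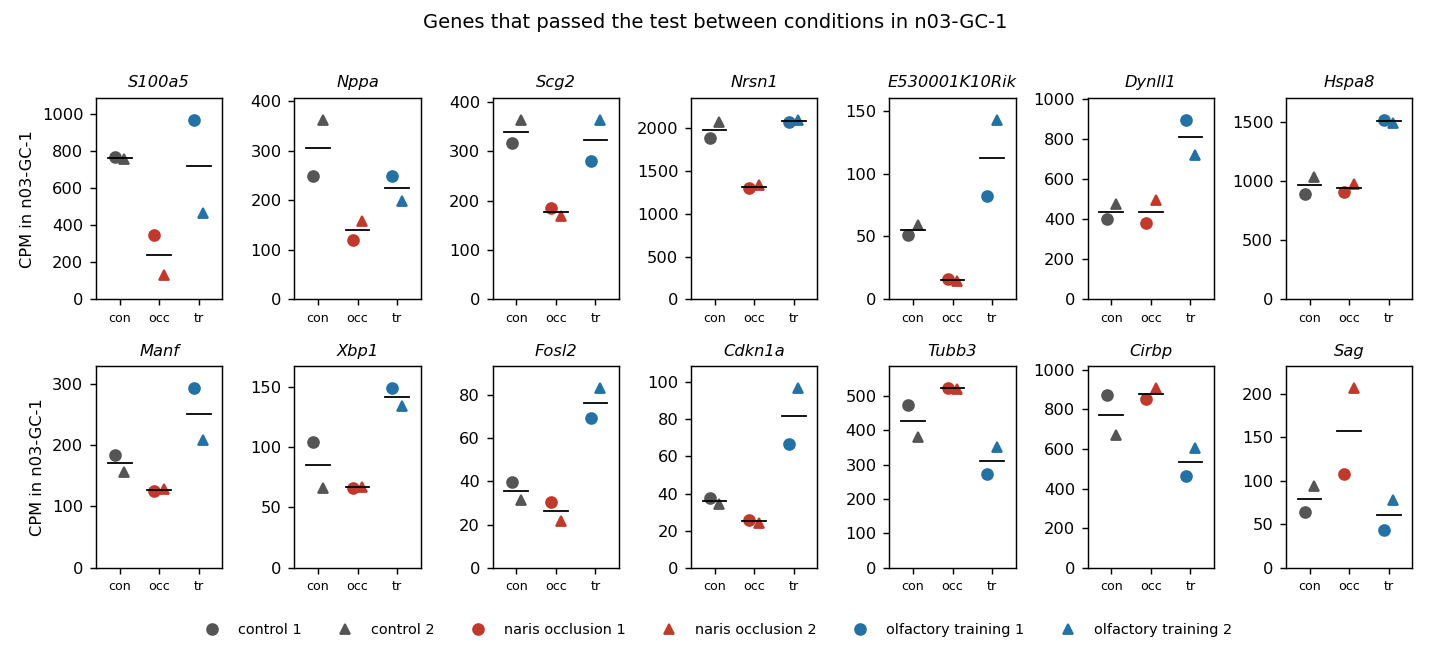
CPM in n03-GC-1 for the 14 genes that passed the test in at least 1 comparison, by library (con, control; occ, naris occlusion; tr, olfactory training; circle, replicate 1; triangle, replicate 2), with condition means as lines and each axis from 0. The occluded libraries are lowest for Scg2, Nppa, Nrsn1 and S100a5, and the trained libraries highest for Dynll1, Hspa8, Manf, Xbp1, Fosl2 and Cdkn1a.

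Of the 3 comparisons, training against occlusion gave the most genes. Trained libraries were higher for 10 genes, 0.143% of those tested, and lower for 3, 0.0429%. The shares at an unadjusted p under 0.05 were 3.95% higher and 3.77% lower. Of the genes that had fallen under occlusion, E530001K10Rik, S100a5, Scg2 and Nrsn1 passed here too, with log2 differences of 2.76 (adjusted p = 2.8e-05), 1.66 (0.000816), 0.84 (0.0228) and 0.67 (0.0105). Since both comparisons use the same occluded libraries, this is not a second observation of the change.

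The other genes that were higher after training were Hspa8, Manf, Xbp1, Fosl2, Cdkn1a and Dynll1. Hspa8, the constitutive chaperone of the cytosol, was at 907 and 980 CPM under occlusion and 1522 and 1490 CPM after training, with 896 and 1036 CPM in controls (log2 difference 0.68, SE 0.14, adjusted p = 0.0218). Manf, a secreted protein of the endoplasmic reticulum induced by misfolded proteins, was at 126 and 129 CPM under occlusion and 293 and 208 CPM after training (1.02, SE 0.19, adjusted p = 0.0105). Xbp1, a transcription factor of the unfolded protein response, was at 66.1 and 67.1 CPM against 149 and 134 CPM (1.10, SE 0.24, adjusted p = 0.0392). Fosl2, a member of the AP-1 factors, was at 30.6 and 21.5 CPM under occlusion and 69.4 and 83.1 CPM after training, with 39.8 and 31.3 CPM in controls (1.53, SE 0.33, adjusted p = 0.0292). Cdkn1a, an inhibitor of cyclin-dependent kinases, was at 25.8 and 24.2 CPM against 66.8 and 96.9 CPM, with 37.9 and 34.4 CPM in controls (1.64, SE 0.33, adjusted p = 0.0192). In these 5 genes both trained libraries were above both controls as well. The same trained libraries had picked these genes, so that order is no separate evidence. Dynll1 passed again at 0.90 (SE 0.16, adjusted p = 0.00738). In the other 11 adult-born types together, both trained libraries were above both occluded ones for all of these genes too. Xbp1 was there at 62.3 and 55.8 CPM under occlusion and 126 and 92.6 CPM after training. In n02-PGC-1 alone Cdkn1a overlapped, at 6.08 and 17.7 CPM and then 20.6 and 15.3 CPM. Differences of response were not tested for this comparison.

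Lower after training than under occlusion were Tubb3, Cirbp and Sag. Tubb3, the tubulin of neurons, was at 524 and 522 CPM under occlusion and 272 and 351 CPM after training, with 473 and 382 CPM in controls (log2 difference -0.77, SE 0.16, adjusted p = 0.0233). Cirbp, an RNA-binding protein induced by cold, was at 851 and 909 CPM against 465 and 605 CPM, with 875 and 670 CPM in controls (-0.74, SE 0.15, adjusted p = 0.0264). Sag, arrestin of the retina, was at 108 and 207 CPM against 43.7 and 78.4 CPM (-1.49, SE 0.32, adjusted p = 0.0292). The Sag controls, at 64.4 and 93.9 CPM, overlapped with the trained libraries and lay below both occluded ones. In the other 11 adult-born types together, all of these genes were lower after training as well. Sag was there at 174 and 309 CPM under occlusion and 116 and 162 CPM after training. The count of 13 fell to 2 without control replicate 1, 1 without control replicate 2 and 3 without olfactory training replicate 1. It rose to 54 without naris occlusion replicate 1, 32 without naris occlusion replicate 2 and 21 without olfactory training replicate 2. E530001K10Rik passed in all 15 alternatives run for this comparison.

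Few members of the lists by role passed between conditions. Among the 13 activity-induced genes tested, 0 passed under occlusion or training against control, and the median log2 difference was 0.11 and 0.09, beside -0.00 for all genes tested in both comparisons. Between training and occlusion 1 member passed (Fosl2), against 0.143% of all genes tested, and 3 were higher and 0 lower at an unadjusted p under 0.05, against 3.95% and 3.77%. Fos, the classic early gene of active neurons, was at 17.04 and 37.6 CPM in controls, 25.8 and 29.5 CPM under occlusion and 12.9 and 23.1 CPM after training, and the controls overlapped with both manipulated conditions. Homer1, a postsynaptic scaffold with an activity-induced form, was at 34.1 and 47.0 CPM in controls, 19.3 and 21.5 CPM under occlusion and 59.1 and 59.99 CPM after training, without overlap (training against occlusion 1.53, adjusted p = 0.0784).

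Of the 13 neuropeptide and granin genes tested, 2 fell under occlusion (Nppa and Scg2), against 0.0715% of all genes tested, and 3 were lower and 1 higher at an unadjusted p under 0.05, against 2.84% and 2.67%. The list median was -0.09, and 1 member was higher after training than under occlusion (Scg2), against 0.143% of all genes tested. Of the 26 immature neuron genes, 0 passed against control in either condition, with 3 higher and 1 lower under occlusion at an unadjusted p under 0.05, against 2.67% and 2.84%, and 1 (Tubb3) was lower after training than under occlusion, against 0.0429% of all genes tested. Sox11 was at 37.9 and 72.0 CPM in controls, 124 and 110 CPM under occlusion and 108 and 83.1 CPM after training (occlusion against control 1.15, SE 0.27, adjusted p = 0.110). Dcx was at 199 and 222 CPM, 266 and 244 CPM, and 183 and 212 CPM in the same order, with 0.26 (SE 0.16, adjusted p = 0.934) under occlusion. Among 29 genes of mature neurons and synapses 0 passed in any of the 3 comparisons, while 2 were lower under occlusion and 4 higher after training than under occlusion at an unadjusted p under 0.05, against 2.84% and 3.95% of all genes tested.

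The 11 chaperone genes had 0 that passed for training against control, 4 higher and 0 lower at an unadjusted p under 0.05, against 2.70% and 2.54% of all genes tested, and a median of 0.17 beside -0.00 for all genes. Besides Hspa8 those were Hspa5, the chaperone of the endoplasmic reticulum, Dnaja1 and Hsph1. Hspa5 was at 170 and 147 CPM in controls and 260 and 217 CPM after training (0.57, SE 0.19, adjusted p = 0.761). The 13 messenger RNAs of the mitochondrial genome had 0 that passed in any comparison. All 13 estimates were negative under occlusion against control, with a median of -0.27 and 6 lower at an unadjusted p under 0.05, whereas of all 6995 genes 3530 were negative, 2.84% were lower and the median was -0.00. All 13 were positive for training against occlusion, with a median of 0.22 and 5 higher, whereas of all genes 3541 were positive and 3.95% higher. The libraries overlapped in some, and mt-Nd4 was at 5244 and 5696 CPM under occlusion and 6830 and 5039 CPM after training. In the occluded libraries the median cell had 6.34% and 7.35% mitochondrial UMIs, against 8.10% and 8.26% in controls and 9.25% and 6.93% after training. Of the 9 GABA genes and the 30 transcription factors tested, 0 passed in any comparison. Gad1 was at 619 and 620 CPM in controls, 529 and 446 CPM under occlusion and 640 and 628 CPM after training (occlusion against control -0.38, SE 0.14, adjusted p = 0.700).

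Whether these responses were particular to calretinin granule cells was tested as the difference from the response of the other 11 adult-born types summed, within libraries. The mix of those 11 types itself changed with occlusion. The share of n14-GC-7 among adult-born neurons differed by -1.91 on the log2 scale (adjusted p = 3.48e-05 by edgeR's quasi-likelihood test). A response of the sum can thus hold changes of mix as well as of expression, and their parts were not tested. Under occlusion 6 of 11669 genes passed, 3 with a higher response in n03-GC-1 (0.0257%) and 3 with a lower one (0.0257%), beside 3.15% and 2.21% at an unadjusted p under 0.05. None of the 5 genes that fell under occlusion was among them. For S100a5 the difference of responses was 0.18 (SE 0.15, adjusted p = 0.992), for Nppa 0.30 (SE 0.19, adjusted p = 0.977), for Nrsn1 0.19 (SE 0.12, adjusted p = 0.966), for Scg2 -0.30 (SE 0.16, adjusted p = 0.918) and for E530001K10Rik -1.15 (SE 0.44, adjusted p = 0.765). Against n02-PGC-1 alone the differences were 0.08 for S100a5, -0.21 for Nppa, -0.12 for Nrsn1 and 0.18 for E530001K10Rik. For Scg2 the difference was -0.75 (SE 0.21, adjusted p = 0.714), and none of the 5 passed. Scg2 in n02-PGC-1 was at 308 and 350 CPM in controls and 270 and 306 CPM under occlusion. Under training 0 of 11669 genes passed in either direction (0%), with 2.56% higher and 2.28% lower at an unadjusted p under 0.05. For Dynll1 the difference was 0.32 (SE 0.14, adjusted p = 1).

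Of the 6 genes, Tac2, the precursor of neurokinin B, was at 72.0 and 50.1 CPM in n03-GC-1 controls and 24.2 and 24.2 CPM under occlusion, and the trained libraries, at 23.1 and 32.3 CPM, were about as low. Within n03-GC-1 occlusion against control gave -1.41 (adjusted p = 0.0993), which did not pass. The other types had 23.9 and 32.9 CPM in controls and 44.4 and 31.2 CPM under occlusion. The difference of responses was -1.80 (SE 0.37, adjusted p = 0.00402). Against n02-PGC-1 alone it was -2.37 (adjusted p = 3.07e-07), and against n04-Immature alone -1.73 (adjusted p = 0.973), where the call was lost. Tac2 was at 264 ± 123 CPM in n02-PGC-1. In n04-Immature it was at 2.05 ± 1.41 CPM, too low for that comparison to decide. Pcdh17, a protocadherin, was at 453 and 398 CPM in controls and 393 and 517 CPM under occlusion in n03-GC-1, while the other types had 171 and 186 CPM and then 115 and 119 CPM (0.72, SE 0.15, adjusted p = 0.00402). Against n02-PGC-1 alone it was 0.27 (adjusted p = 0.992) and against n04-Immature alone 0.26 (adjusted p = 0.989), so the call was lost against either. Pde2a, a phosphodiesterase that breaks down cyclic nucleotides, was at 32.2 and 47.0 CPM and then 72.5 and 87.2 CPM in n03-GC-1, against 53.0 and 58.1 CPM and then 56.8 and 38.5 CPM in the other types (1.34, SE 0.31, adjusted p = 0.0371). The Pde2a call was lost against n02-PGC-1 alone (1.04, adjusted p = 0.827) and against n04-Immature alone (1.09, adjusted p = 0.916). For Hmgb2, a chromatin protein of dividing and young cells, n03-GC-1 had 34.1 and 37.6 CPM and then 45.1 and 41.6 CPM, and the other types 91.6 and 95.4 CPM and then 39.2 and 40.3 CPM (1.55, SE 0.35, adjusted p = 0.0197). The Hmgb2 call was lost against n02-PGC-1 alone (0.43, adjusted p = 0.992). For Pcdh17 the conditions overlapped in n03-GC-1 and not in the other types, and for Hmgb2 they lay closer together in n03-GC-1. The hemoglobin genes Hbb-bs and Hba-a1, of red blood cells, made up the rest. Hbb-bs was at 119 and 37.6 CPM in n03-GC-1 controls and 121 and 102 CPM under occlusion, and at 138 and 65.6 CPM and then 447 and 390 CPM in the other types (-1.52, SE 0.25, adjusted p = 6.5e-06). The Hbb-bs call was lost against n02-PGC-1 alone (0.0042, adjusted p = 0.999) and against n04-Immature alone (-0.48, adjusted p = 0.957). Without naris occlusion replicate 1 the count of genes was 16, without naris occlusion replicate 2 it was 2, and without either control library it was 3.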

How the data were processed

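Libraries were made with a droplet kit that reads the 3′ end of transcripts (10X Chromium, v2). The authors counted UMIs per gene and barcode and deposited these counts without normalization, with annotations that give each cell's library, cluster and the fraction of mitochondrial UMIs. The submitters' processing notes name Cell Ranger 2.0.0, Seurat 2.2.1 and the mm10 build, and the study states a minimum of 200 genes per cell and removal of doublets, so none was removed here. Cells were taken by cluster name and libraries from the annotation's library column, because cell-name prefixes disagree with it for both trained libraries. Counts were summed per library and type. Genes were tested with edgeR 4.0.16 (quasi-likelihood, TMM factors, filterByExpr, all 6 libraries, Benjamini-Hochberg adjustment at 0.05), numbers of cells with the adult-born total as offset, and responses against other types with library as a block. Fold changes are on edgeR's log2 scale. The test was tried on simulated counts. CPM ratios used a pseudocount of 5.

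Genes named are Calb2, list members, the 15 highest and 10 lowest in n03-GC-1 as defined in the text, all that passed with libraries that do not overlap (at most 12 per direction), and the 6 with the lowest adjusted p for the difference of responses. The cells, lists and tests were chosen with earlier results of these data known. Alternatives were a replicate block, other size factors, filters, totals and cells, DESeq2 1.42.0, and leaving out each library. Columns of per-sample values left unused numbered 0.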

Additional observations from a re-analysis of the deposited data

Results flagged for a closer look

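The response to occlusion differed between n03-GC-1 and the other 11 adult-born types by edgeR's quasi-likelihood test of that difference for 6 genes. The log2 differences, n03-GC-1 minus the others, were -1.80 for Tac2, -1.52 for Hbb-bs, -2.54 for Hba-a1, 0.72 for Pcdh17, 1.55 for Hmgb2 and 1.34 for Pde2a. Against n02-PGC-1 alone, Tac2 passed (adjusted p = 3.07e-07) and the other 5 did not, with 0.27 for Pcdh17, 0.43 for Hmgb2, 1.04 for Pde2a, -1.0005 for Hba-a1 and 0.0042 for Hbb-bs (adjusted p from 0.827 to 0.999). Against n04-Immature alone, Hmgb2 passed (2.06, adjusted p = 2.35e-05) and the other 5 did not, with -1.73 for Tac2, 0.26 for Pcdh17, 1.09 for Pde2a, -1.62 for Hba-a1 and -0.48 for Hbb-bs (adjusted p from 0.729 to 0.989). Tac2 was low in n04-Immature, at 2.05 ± 1.41 CPM. Hba-a1 was at 24.6 and 15.7 CPM in n03-GC-1 controls and 38.7 and 16.1 CPM under occlusion, and at 21.9 and 16.3 CPM and then 177 and 122 CPM in the other types, and the 5 red blood cell markers summed to 65.7 to 182 CPM in n03-GC-1 controls and 158 to 197 CPM under occlusion. The part of red blood cell RNA in these values was not tested.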

How the results depend on the processing

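No label ties same-numbered libraries to shared animals, and the number goes with sex as read from sex-linked genes, so a block on it is also a block on sex. Deviations of same-numbered libraries correlated at 0.0667 (control and occlusion), 0.0410 (control and training) and -0.00616 (occlusion and training) over 6990 genes. With the number as a replicate block, 12 genes passed for occlusion against control, 2 for training against control and 30 for training against occlusion, with all 5, 1 and 13 genes of the report among them, and the share differed by 0.88, -0.41 and -1.29 on the log2 scale. In the same order of comparisons, DESeq2 gave 0, 0 and 2 genes, a fit that kept all genes with a count 11, 3 and 27, and a fit of the 4 libraries compared 2, 1 and 1. Training against control gave 0 genes with a minimum of 30 UMIs in 2 libraries, 0 with cells thinned to 1000 UMIs and 2 without mitochondrial genes. Differences of response numbered 1 with n02-PGC-1 and 2 with n04-Immature as the other cells for occlusion, and 1 with either for training, and Hbb-bs then changed sign to 0.0042 with n02-PGC-1. The share under occlusion was no longer called with TMM factors (0.66), cells of at least 1000 UMIs (0.53) or n06, n07 and n14 left out (0.54), and that of training against occlusion with the latter pair of settings (-0.95 and -0.81). The cause was not tested.

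Leaving out each library, with a lone library assumed to vary like the other conditions, gave 0 to 15, 0 to 4 and 1 to 54 genes in the 3 comparisons, 2 to 16 and 0 to 2 differences of response for occlusion and training, and log2 differences of the share of 0.66 to 1.03 for occlusion, -0.68 to -0.19 for training and -1.54 to -1.05 between them. Over the 394 alternative values of the genes named from tests and Calb2, 260 stayed on their side of the threshold, 129 lost the call in the same direction, 4 gained it and 1 changed sign. With 2 libraries against 2, the smallest exact permutation p is 0.333.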
